A study of Mus musculus with 4 samples.

Results

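The 10 planar cell polarity genes described here are Celsr1, Celsr2, Celsr3, Vangl1, Vangl2, Prickle1, Prickle2, Ptk7, Dact1 and Scrib. They were chosen by gene symbol from the 24831 genes listed in the count tables. RNA was sequenced from mouse somitic gastruloids, which are aggregates of embryonic stem cells that elongate in culture and form presomitic tissue and somites. dTAG-13 was given at 100 nM to one group, at 72 h and again at 96 h, and the other is labelled untreated, with DMSO named as the control in the growth protocol. Each group held 2 libraries, numbered 1 and 2. All 4 libraries came from the E14_triple reporter line with the endogenous Zeb2 gene fused to an HA epitope and the FKBP12F36V degron, so the untreated gastruloids carried the tag too. dTAG-13 is a small molecule that brings the tagged protein to a ubiquitin ligase for degradation. In both groups each well began with 300 sorted cells, CHIR99021, which activates the WNT pathway, was added at 3 μM after 48 h, and the aggregates went into 10% Matrigel at 96 h. The labels name 1 line and do not say whether it is 1 clone, or whether the replicates were cultured separately. The p-values therefore reflect the spread among the libraries alone, and that spread may be technical.

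Planar cell polarity is the alignment of cells within the plane of a tissue. Its core proteins are transmembrane and cytoplasmic partners that gather at opposite borders of a cell: VANGL and PRICKLE on one side, Frizzled and Dishevelled on the other, and CELSR cadherins bridging neighbouring cells on both. In the mouse embryo the pathway is known for convergent extension, the narrowing and lengthening of the body axis, and for closure of the neural tube.

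Reads counted in genes came to 11491330 to 12716172 per library, and 13602 genes had enough counts to be tested. Reads outside genes made up 25.3% and 29.2% of counted or unassigned reads in the dTAG-13 libraries and 35.7% and 24.1% in the untreated ones. Zeb2 mRNA was at 103 and 108 CPM (reads per 1000000 in genes, scaled by edgeR's TMM factors) with dTAG-13, against 98.3 and 164 CPM in untreated gastruloids. dTAG-13 acts on the protein, so this level does not check the labels. All 8 presomitic mesoderm markers and all 8 somite markers, chosen as a check of the tissue with earlier results of these data known, were detected. Their summed levels were 155 to 196 CPM with dTAG-13 against 222 to 247 CPM untreated for the presomitic list, and 123 to 168 CPM with dTAG-13 against 216 to 301 CPM untreated for the somite list. Ripply2, a presomitic marker, was at 0.0853 and 0.170 CPM with dTAG-13, below the level of 3 reads (0.256 and 0.255 CPM). Dll1 and Rspo3 made up most of the presomitic sum. In both replicate numbers 6 presomitic markers were lower, against 23.9% of all genes, and 2, Msgn1 and Rspo3, were higher, against 27.7%. All 8 somite markers were lower in both. In RNA from whole gastruloids, fewer cells of a type and less RNA per cell cannot be told apart.

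ZEB proteins are known to bind E-box sequences, so promoters of the members were searched for CACCTG and CAGGTG, the same 6 bases read on either strand. RefSeq windows of GRCm38.p6, from 250 bases before to 50 bases after a gene start, were at hand for 7 of the 10 members, in 11 windows. The E-box stood in 3 of these 11 windows (27.3%), against 20.2% of all 32851 windows. Counted by gene, it stood in 3 of 7 members (42.9%), against 22.6% of all genes with a window. A gene with more windows has more chances of a match, and Prickle1 held it only in the downstream of its 2 windows. The 3 windows belong to Vangl2, Celsr2 and Prickle1, and their 250 bases before the start are shown 5′ to 3′ with the E-box in capitals, since these are the members that hold it. The windows of Prickle2, Dact1, Ptk7 and Celsr3 held no match, and no window was at hand for Celsr1, Vangl1 or Scrib. A match is a description of letters and not a binding site. The 250-base stretches shown are chr1:172027296-172027545 (minus strand) for Vangl2, chr3:108415580-108415829 (minus strand) for Celsr2 and chr15:93519521-93519770 (minus strand) for the downstream of the pair of Prickle1 starts. Those of Celsr2 and Prickle1 lie inside the RefSeq gene intervals given further on, and that of Vangl2 overlaps the end of its interval.
Vangl2: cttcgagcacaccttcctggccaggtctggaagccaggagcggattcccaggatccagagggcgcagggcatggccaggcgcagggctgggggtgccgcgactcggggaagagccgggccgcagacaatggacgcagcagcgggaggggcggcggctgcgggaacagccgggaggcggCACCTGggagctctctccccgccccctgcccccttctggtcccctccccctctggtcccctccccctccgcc
Celsr2: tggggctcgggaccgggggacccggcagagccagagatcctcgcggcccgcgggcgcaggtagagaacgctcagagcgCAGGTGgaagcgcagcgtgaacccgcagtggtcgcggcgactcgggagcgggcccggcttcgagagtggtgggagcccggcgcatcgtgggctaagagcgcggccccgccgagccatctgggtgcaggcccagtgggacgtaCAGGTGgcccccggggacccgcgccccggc
Prickle1: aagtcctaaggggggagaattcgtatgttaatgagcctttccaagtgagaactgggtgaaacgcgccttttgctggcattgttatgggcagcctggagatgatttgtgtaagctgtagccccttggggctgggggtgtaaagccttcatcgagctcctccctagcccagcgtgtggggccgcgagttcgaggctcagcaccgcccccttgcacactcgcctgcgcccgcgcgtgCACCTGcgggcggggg
The E-box began 72 bases before the start in Vangl2, 172 and 30 bases before it in Celsr2 and 16 bases before it in Prickle1.

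None of the 9 members that could be tested passed an adjusted p of 0.05 in edgeR's quasi-likelihood test over all 13602 genes, where 0 genes passed in either direction (0% higher and 0% lower). At an unadjusted p under 0.05 edgeR counted 0 members, against 3.52% of all genes (479 genes), and DESeq2 called 0 members at an adjusted p of 0.05, against 0.221% of genes higher and 0.119% lower. Fitted log2 fold changes of the 9 members, dTAG-13 over untreated, had a median of -0.21 and ran from -0.60 for Celsr1 to 0.10 for Ptk7, where all genes tested had a median of 0.00 and quartiles at -0.13 and 0.13. The median without untreated replicate 2 was -0.04. Below untreated were 6 of the 9, against 49.1% of all genes. Within replicate numbers, 5 of 9 members (Celsr1, Celsr2, Vangl2, Prickle2 and Dact1) were lower with dTAG-13 in both, against 23.9% of all genes, and 1 (Ptk7) was higher in both, against 27.7%. Ptk7 lost this with plain library totals, where it was lower in number 1. No label says what libraries of the same number share. The main edgeR fit had no replicate block, so shifts shared by libraries of the same number counted as spread within groups. With a block in that fit 636 genes passed (4.68%), among them 1 member, Celsr1. In 2 members, Vangl2 and Prickle2, both dTAG-13 libraries lay below both untreated ones, against 11.9% of all genes, and in 0 members above them, against 14.4%. The members were chosen with earlier results of these data known, so the shares of all genes given beside them serve as description only.

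**Figure D1:**
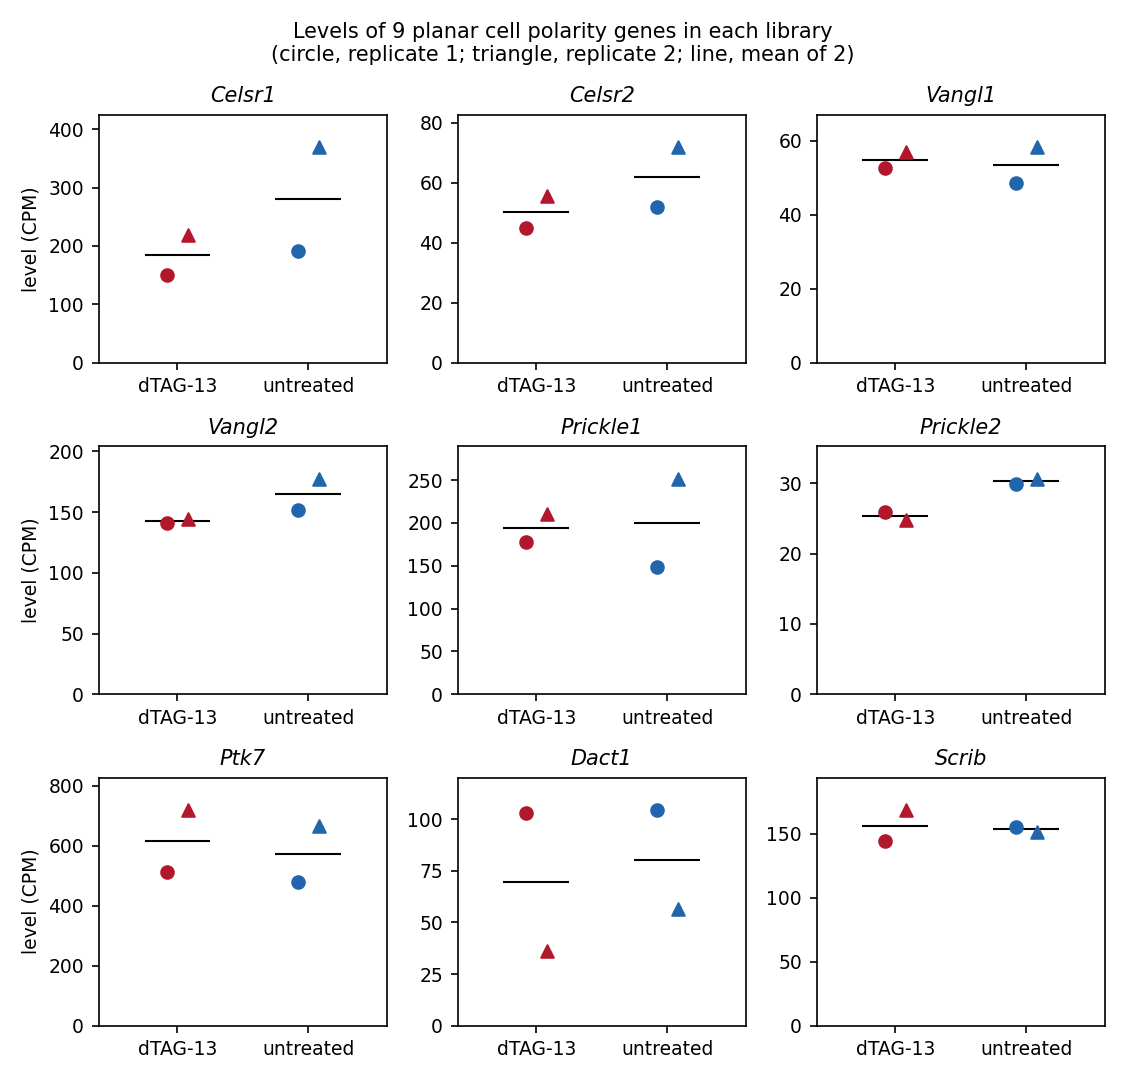
Level of each tested member in CPM (vertical axis, from 0) in the dTAG-13 and untreated libraries, with a circle for replicate 1, a triangle for replicate 2 and a line at the mean of the 2. Vangl2 and Prickle2 are the panels in which the groups do not overlap, and in Dact1 both triangles lie far below both circles.

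Per kilobase of exon (GENCODE M21), which allows genes to be compared, Ptk7 was the most abundant member at a mean of 110 CPM per kb over the 4 libraries, followed by Prickle1 at 45.3 CPM per kb. Scrib, Vangl2, Celsr1 and Dact1 came next at 24.0, 22.0, 21.1 and 19.9 CPM per kb, and each of these overlapped its neighbour in the order over the 4 libraries. Vangl1 at 7.57, Celsr2 at 4.86 and Prickle2 at 3.23 CPM per kb followed, with ranges that did not overlap. No source used here names the annotation used for counting, so these lengths may differ from those counted.

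The CELSR genes encode atypical cadherins, relatives of fly Flamingo, that join core complexes across neighbouring cells. Celsr1 (chromosome 15, 85898758 to 86034223 in GRCm38.p6, minus strand), mutated in the mouse line crash with an open neural tube, was at 151 and 218 CPM in dTAG-13 replicates 1 and 2, from 1767 and 2568 reads, against 191 and 369 CPM untreated, from 2532 and 4148 reads. The groups overlapped, because dTAG-13 replicate 2 was above untreated replicate 1. Means were 184 ± 47.6 CPM with dTAG-13 and 280 ± 126 CPM untreated (SD, n = 2 each). The log2 fold change was -0.60 ± 0.38 (SE), with a 95% interval of -1.62 to 0.42 and an adjusted p of 1.00 by edgeR. Within replicate numbers, the dTAG-13 level was 0.791 times the untreated one in number 1 and 0.591 times in number 2. The fold change rested on single libraries, at -0.05 without untreated replicate 2 and -1.02 without untreated replicate 1. In edgeR's fit with the replicate number as a block, Celsr1 was the single member past the threshold (log2 fold change -0.55, adjusted p = 0.0202 by edgeR), where 4.68% of all genes passed, 2.90% higher and 1.77% lower.

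Celsr2 (chromosome 3, 108390848 to 108416069, minus strand), which acts with other CELSR proteins in ependymal cilia and neurons, was at 45.0 and 55.5 CPM with dTAG-13, against 51.7 and 71.8 CPM untreated. As for Celsr1, both libraries numbered 1 were lower than those numbered 2 of the same group, and the groups overlapped. The log2 fold change was -0.30 ± 0.20 (95% interval -0.79 to 0.19, adjusted p = 1.00 by edgeR), and it was -0.04 without untreated replicate 2. Celsr1 made up 77.0% and 79.7% of the reads of these 2 genes in dTAG-13 replicates 1 and 2 (95% exact binomial intervals 75.2% to 78.7% and 78.3% to 81.1%), against 78.7% and 83.7% untreated (77.2% to 80.1% and 82.7% to 84.7%). Such intervals cover counting error only. Celsr3, known for axon guidance, was listed at 0 reads in all 4 libraries and was not tested. The miRNA gene Gm23156 overlaps Celsr3 on the same strand in GENCODE. A count of 0 allows up to 3 reads, or 0.226 to 0.267 CPM. Jund, an AP-1 gene used widely by cells, was also listed at 0 in all 4 libraries, so a 0 in these tables was not read as absence of the transcript.

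VANGL1 and VANGL2 are the multipass membrane proteins that recruit PRICKLE, and Vangl2 is mutated in the loop-tail mouse, which has an open neural tube. Vangl2 (chromosome 1, 172000960 to 172027318, minus strand) was at 141 and 145 CPM in dTAG-13 replicates 1 and 2, from 1650 and 1704 reads, against 152 and 178 CPM untreated, from 2014 and 1996 reads. Both dTAG-13 libraries lay below both untreated ones, by a small margin in number 1. Means were 143 ± 2.79 CPM with dTAG-13 and 165 ± 18.3 CPM untreated (SD, n = 2 each), and the log2 fold change of -0.21 ± 0.14 had a 95% interval of -0.54 to 0.13 and an adjusted p of 1.00 by edgeR. It was -0.09 without untreated replicate 2 and -0.33 without untreated replicate 1. Its paralog Vangl1 (chromosome 3, 102153583 to 102204744, minus strand) was at 52.7 and 57.1 CPM with dTAG-13, against 48.6 and 58.3 CPM untreated, so that the dTAG-13 values lay between the untreated ones. Its log2 fold change was 0.04 ± 0.16, with a 95% interval of -0.33 to 0.41, and it turned to -0.10 when untreated replicate 1 was left out and to -0.04 when dTAG-13 replicate 2 was. Vangl2 made up 72.8% and 71.7% of the reads of this gene pair with dTAG-13 (95% exact binomial intervals 70.9% to 74.6% and 69.9% to 73.5%), against 75.7% and 75.3% untreated (74.1% to 77.4% and 73.6% to 76.9%). The shares of the groups did not overlap, but with 2 libraries against 2 a two-sided permutation test cannot go below a p of 0.333. Vangl1 overlaps the antisense gene Gm16160 in GENCODE, and no source used here says whether counting was strand-specific.

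PRICKLE proteins are cytoplasmic partners of VANGL with LIM domains. Prickle2 (chromosome 6, 92370891 to 92706334, minus strand) was at 25.9 and 24.8 CPM with dTAG-13, from 304 and 292 reads, against 29.98 and 30.7 CPM untreated, from 398 and 345 reads. The groups did not overlap, and the libraries of each group lay close together. Means were 25.4 ± 0.804 CPM with dTAG-13 and 30.3 ± 0.506 CPM untreated (SD, n = 2 each). Counting error at such read numbers is larger than these SDs, so they do not measure precision. The log2 fold change of -0.26 ± 0.16 (95% interval -0.63 to 0.12) had the smallest unadjusted p of the members, 0.148, and an adjusted p of 1.00 by edgeR, and it stayed between -0.29 and -0.24 when each library in turn was left out. The pseudogene Gm17797 overlaps Prickle2 on the opposite strand in GENCODE. Prickle1 (chromosome 15, 93499111 to 93596266, minus strand) went in opposite directions in the replicate numbers. It was at 178 and 210 CPM with dTAG-13, against 148 and 252 CPM untreated, a difference of 0.26 in log2 CPM in number 1 and -0.26 in number 2. The untreated values enclosed those with dTAG-13, the fitted log2 fold change was -0.04 ± 0.27, and it moved to 0.39 when untreated replicate 2 was left out, to 0.07 for dTAG-13 replicate 1 and to -0.39 for untreated replicate 1. Prickle1 made up 87.3% and 89.4% of the reads of the PRICKLE pair with dTAG-13 (95% exact binomial intervals 85.9% to 88.6% and 88.2% to 90.6%), against 83.2% and 89.1% untreated (81.6% to 84.7% and 88.0% to 90.2%).

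The other 3 members regulate the core complexes. Ptk7 (chromosome 17, 46564451 to 46630049, minus strand) encodes a receptor-like pseudokinase that takes part in convergent extension. It was at 512 and 720 CPM with dTAG-13, against 481 and 666 CPM untreated, so it was higher with dTAG-13 by 1.07 times in number 1 and 1.08 times in number 2, while the groups overlapped. With plain library totals the difference in number 1 turned to -0.03 in log2 CPM. Its log2 fold change was 0.10 ± 0.24 (95% interval -0.47 to 0.67, adjusted p = 1.00 by edgeR), and -0.18 without dTAG-13 replicate 2 and -0.13 without untreated replicate 1. The long noncoding gene Gm26904 overlaps Ptk7 on the opposite strand in GENCODE. Scrib (chromosome 15, 76047162 to 76069784, minus strand), a scaffold of the basolateral membrane that binds VANGL2, was at 144 and 169 CPM with dTAG-13, against 155 and 152 CPM untreated. The untreated values lay between those with dTAG-13, and the log2 fold change of 0.03 ± 0.14 (95% interval -0.31 to 0.36) turned to -0.11 without dTAG-13 replicate 2. The miRNA gene Mir6952 overlaps Scrib on the same strand in GENCODE.

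Dact1 (chromosome 12, 71309884 to 71320107, plus strand), which encodes a Dishevelled-binding protein that also binds VANGL2, varied most among the members. It was at 103 and 35.9 CPM in dTAG-13 replicates 1 and 2, from 1204 and 423 reads, against 104 and 56.4 CPM in untreated replicates 1 and 2, from 1386 and 634 reads. The libraries numbered 1 were thus the high ones in both groups, and the groups overlapped. The difference between dTAG-13 and untreated was -0.02 in log2 CPM in number 1 and -0.65 in number 2, and the fitted log2 fold change of -0.22 ± 0.66 had a 95% interval of -2.17 to 1.73. It turned to 0.33 without dTAG-13 replicate 2 and to 0.28 without untreated replicate 1. The transcript gene 4930474H06Rik overlaps Dact1 on the opposite strand in GENCODE.

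**Figure D2:**
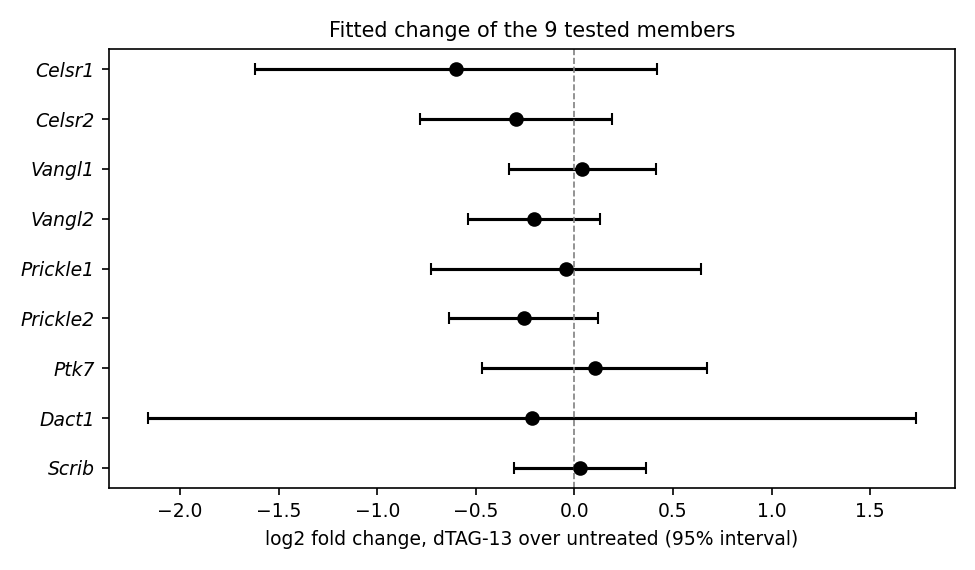
Fitted log2 fold change, dTAG-13 over untreated, of the 9 tested members (horizontal axis) with 95% intervals from edgeR's fit. Every interval includes 0, and they are widest for Dact1 (-2.17 to 1.73) and Celsr1 (-1.62 to 0.42).

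On the linear scale, the 95% interval of the ratio of dTAG-13 to untreated ran from 0.794 to 1.33 for Vangl1 and from 0.808 to 1.28 for Scrib. For Celsr1 the interval ran from 0.325 to 1.336 times untreated, and for Dact1 from 0.223 to 3.33 times.

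For 7 of the 9 members the gap between replicate numbers, averaged over the groups, was larger than the gap between dTAG-13 and untreated, averaged over the numbers, against 62.2% of all genes. The exceptions were Vangl2 and Prickle2. Replicate 2 minus replicate 1 came to 0.53 in log2 CPM with dTAG-13 and 0.95 untreated for Celsr1, and to 0.49 with dTAG-13 and 0.47 untreated for Ptk7. For Prickle1 it was 0.24 with dTAG-13 and 0.76 untreated, and for Dact1, in the other direction, -1.51 with dTAG-13 and -0.89 untreated. Celsr1, Celsr2, Vangl1, Vangl2, Prickle1 and Ptk7 were higher in replicate 2 in both groups, and Dact1 was lower in both. The share of all genes with such agreement was not counted. Over all genes, deviations of same-numbered libraries from their group means had a correlation of 0.63.

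**Figure D3:**
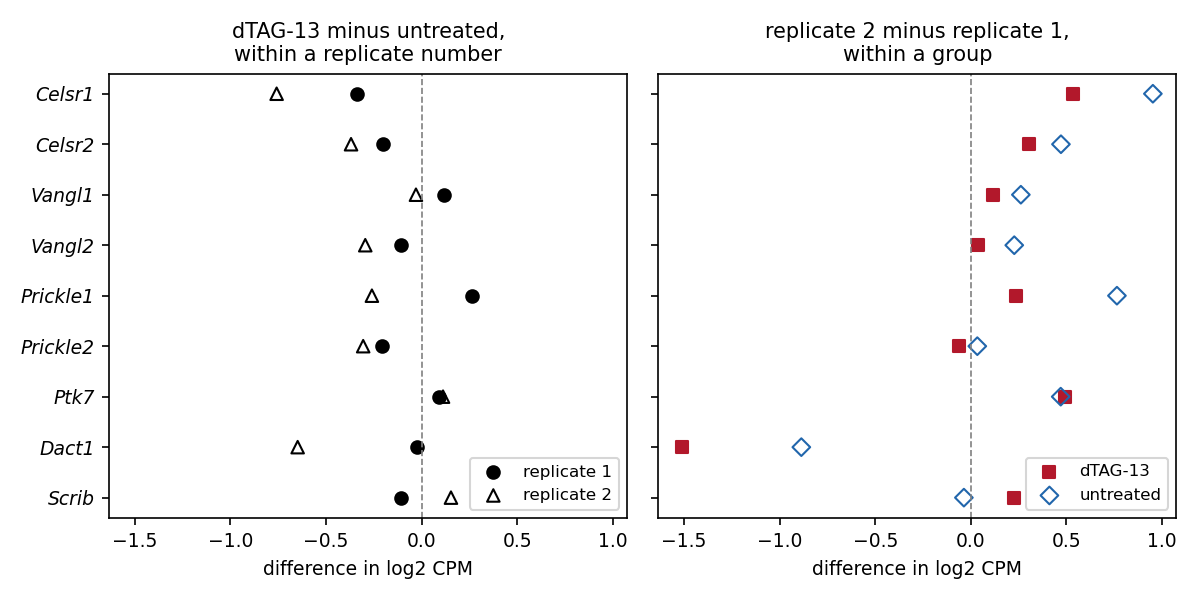
Differences in log2 CPM (horizontal axes) of the 9 tested members, on the left dTAG-13 minus untreated within replicate 1 (filled circles) and replicate 2 (open triangles), on the right replicate 2 minus replicate 1 within dTAG-13 (filled squares) and untreated (open diamonds). The spread on the right is the wider one, from -1.51 for Dact1 with dTAG-13 to 0.95 for Celsr1 in untreated gastruloids.

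Cell type markers also differed between the same libraries. The marker lists were chosen with earlier results of these data known, so the shares of all genes given beside them serve as description only. All 10 neural progenitor markers were lower with dTAG-13 in both replicate numbers, against 23.9% of all genes. Their summed levels were 184 and 241 CPM with dTAG-13 against 262 and 475 CPM untreated. All 12 epithelial markers were higher in both numbers, against 27.7% of all genes, with summed levels of 1149 and 2130 CPM with dTAG-13 against 631 and 875 CPM untreated. Neuron markers summed to 54.2 and 89.2 CPM with dTAG-13 against 61.0 and 87.4 CPM untreated. Stmn2 was the largest part, at 21.3 and 42.0 CPM with dTAG-13 against 18.1 and 34.9 CPM untreated. Of the 8 neuron markers, 4 were lower in both numbers and 2 higher, against 23.9% and 27.7% of all genes. In 3 of them both dTAG-13 libraries lay below both untreated ones, against 11.9% of all genes, and in 0 above, against 14.4%. None of the markers in these 3 lists was at 0 in all libraries, and none passed an adjusted p of 0.05 by edgeR. Untreated replicate 2, the highest library for Celsr1, Celsr2, Vangl1, Vangl2, Prickle1 and Prickle2, was also the highest for the neural progenitor sum. So it was for the presomitic sum (247 CPM) and for the sum of 6 neuromesodermal progenitor markers. That last sum was 233 and 363 CPM with dTAG-13 against 251 and 521 CPM untreated. Dll1, at 127 CPM, was the largest part of the presomitic sum in untreated replicate 2. Tbx6, Hes7 and Ripply2 were instead highest in untreated replicate 1, and Msgn1 and Rspo3 in dTAG-13 replicate 1. Nkx1-2 (169 CPM) and Cdx2 (181 CPM) made up most of the neuromesodermal sum in untreated replicate 2. Cdx4 was highest in untreated replicate 1 and Fgf8 in dTAG-13 replicate 2. Endothelial markers summed to 136 and 48.7 CPM with dTAG-13 against 165 and 42.4 CPM untreated, higher in the libraries numbered 1 as Dact1 was, again with no marker at 0 in all libraries. Kdr made up most of the sum in the libraries numbered 1, at 80.4 CPM with dTAG-13 and 103 CPM untreated. Pecam1 did not follow the numbers, at 23.2 and 25.3 CPM with dTAG-13 against 18.7 and 17.97 CPM untreated. Sums of the cardiac, neural crest, somite and endoderm lists were likewise higher in the libraries numbered 1 of both groups. In those libraries Ets1 was the largest part of the neural crest sum, Meox1 of the somite sum and Trh of the endoderm sum. Some markers did not follow the numbers. Aldh1a2, a somite marker, was at 46.7 and 55.7 CPM with dTAG-13 against 49.9 and 82.7 CPM untreated. Foxa2, an endoderm marker, was at 23.4 and 28.5 CPM with dTAG-13 against 16.7 and 15.1 CPM untreated. Tfap2b, a neural crest marker, was higher in number 2 of both groups. Cardiac markers summed to 49.1 and 10.5 CPM with dTAG-13 against 38.4 and 6.14 CPM untreated. Neural crest markers, with Foxd3 at 0 in all libraries, summed to 64.1 and 28.7 CPM with dTAG-13 against 67.7 and 20.3 CPM untreated. All 7 pluripotency markers were higher with dTAG-13 in both numbers, against 27.7% of all genes. They summed to 352 and 554 CPM with dTAG-13 against 284 and 393 CPM untreated, the order of libraries seen for Ptk7. None of them passed an adjusted p of 0.05 by edgeR. The part of these cell types in the levels of the members was not tested.

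The genes most like the 3 members of smallest p were sought among 10204 other genes by the distance between log2 CPM values centred over the 4 libraries. For Prickle2 these were Traf3 and Igdcc4, at distances of 0.0245 and 0.0270. For Vangl2 they were Nkd1, a feedback inhibitor of WNT signalling, and Tcf19, at 0.0223 and 0.0316. For Celsr1 they were Chrna4 and Hoxb8, at 0.107 and 0.125. Hoxb8, a Hox gene of the trunk, was at 53.8 and 83.7 CPM with dTAG-13 against 68.3 and 125 CPM untreated, the order of libraries seen for Celsr1. With 4 libraries such likeness is a description of these samples.

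Beyond the members, 64 further genes of the pathway stood in 7 lists, also chosen with earlier results known, and 58 of them had enough counts. None passed an adjusted p of 0.05 by edgeR (0% of all genes), and 3 higher and 1 lower had an unadjusted p under 0.05, against 2.29% and 1.23% of all genes. Daam1, a formin that links Dishevelled to RHOA and actin, had the smallest p of these genes. It was at 90.2 and 78.7 CPM with dTAG-13 against 59.7 and 43.2 CPM untreated, with both dTAG-13 libraries above both untreated ones, a log2 fold change of 0.71 ± 0.19 and an adjusted p of 0.93 by edgeR. It stayed between 0.50 and 0.95 when each library in turn was left out. The 13 cytoskeletal effectors had a median of 0.06, with 9 above and 4 below untreated, and Rhou had 0.34 ± 0.33, which turned to -0.16 without dTAG-13 replicate 1.

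Ligands and receptors of the WNT5A and WNT11 branch, which feeds into planar polarity, had a median log2 fold change of 0.27. Of 9 tested genes 6 were above untreated, and 6 were higher in both numbers, against 27.7% of all genes. Wnt5a was at 190 and 160 CPM with dTAG-13 against 136 and 129 CPM untreated, without overlap, a log2 fold change of 0.40 ± 0.14 with an unadjusted p of 0.0285 and an adjusted p of 1.00 by edgeR. Sdc4, which encodes the proteoglycan syndecan 4, was at 53.7 and 59.8 CPM with dTAG-13 against 45.3 and 44.2 CPM untreated (log2 fold change 0.34 ± 0.14, adjusted p = 1.00 by edgeR).

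Fat and Dachsous cadherins, a polarity system that works beside the core proteins, had a median log2 fold change of -0.43. In both numbers 5 of 6 were below untreated, against 23.9% of all genes. Dchs2 was at 1.62 and 2.89 CPM with dTAG-13 against 3.39 and 8.54 CPM untreated (log2 fold change -1.39 ± 0.57, adjusted p = 1.00 by edgeR), and its fold change ranged from -1.93 without untreated replicate 1 to -0.59 without untreated replicate 2. Fat3 was at 123 and 53.2 CPM with dTAG-13 against 158 and 96.3 CPM untreated, and had a log2 fold change of -0.53 ± 0.51. As for Dact1, both libraries numbered 1 were the higher of their group. The fold change of Fat3 was -1.26 when dTAG-13 replicate 1 was left out and -0.07 when dTAG-13 replicate 2 was. In the fit with a replicate block, the adjusted p by edgeR was 5.49e-06 for Daam1 (log2 fold change 0.73), 0.00103 for Fat3 (-0.60) and 0.00420 for Dchs2 (-1.35).

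The other core genes had a median of 0.00 over 9 tested, 5 above and 4 below untreated. Fzd3, a Frizzled receptor of planar polarity in axons and the neural tube, was at 211 and 170 CPM with dTAG-13 against 228 and 243 CPM untreated, without overlap (log2 fold change -0.31 ± 0.15), and Dvl1, a Dishevelled gene, had -0.31 ± 0.21 with overlapping groups. Leaving out single libraries moved Fzd3 between -0.47 (dTAG-13 replicate 1) and -0.18 (dTAG-13 replicate 2), and Dvl1 between -0.52 (untreated replicate 2) and -0.07 (untreated replicate 1). The Scribble complex and its LAP relatives had a median of 0.00 over 8 tested. In 3 of them both dTAG-13 libraries lay above both untreated ones, against 14.4% of all genes, and in 1 below, against 11.9%. Dlg5 had a log2 fold change of 0.29 ± 0.13 and Lrrc1, a relative of Scrib, of 0.32 ± 0.16, which was 0.19 when dTAG-13 replicate 2 was left out and 0.42 when dTAG-13 replicate 1 was. Ciliary effectors had a median of -0.17 over 5 tested, with Fuz at 5.29 and 6.03 CPM with dTAG-13 against 9.27 and 8.27 CPM untreated (-0.63 ± 0.30) and Cplane1 at -0.09 ± 0.15, which turned to 0.02 without dTAG-13 replicate 2. Genes for trafficking and turnover of the core proteins had a median of 0.06 over 8 tested, with Gipc1 at 0.15 ± 0.18 and Arfrp1 at -0.25 ± 0.17. Gipc1 turned to -0.10 without dTAG-13 replicate 2, and Arfrp1 moved to -0.07 without untreated replicate 1 and to -0.41 without untreated replicate 2. The genes named in these 4 lists had an adjusted p of 1.00 by edgeR.

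**Figure D4:**
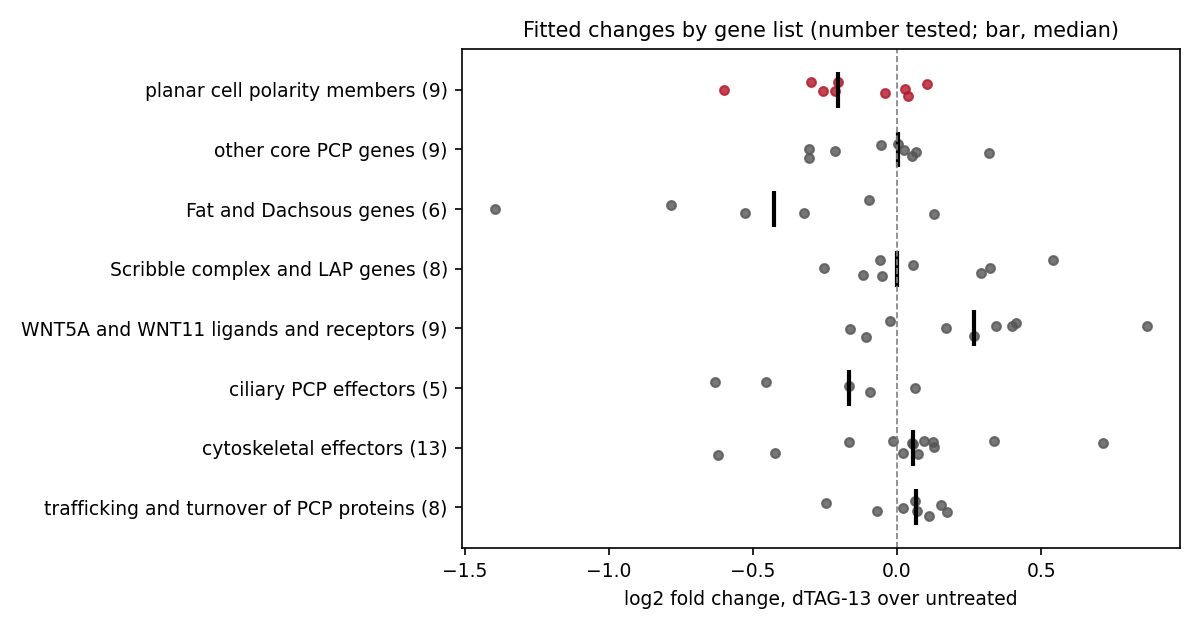
Fitted log2 fold change, dTAG-13 over untreated (horizontal axis), of each tested gene in the members' list (red) and in 7 further pathway lists (grey), with a bar at each list's median and the number tested in parentheses. Medians run from -0.43 for the Fat and Dachsous genes to 0.27 for the WNT5A and WNT11 list, and the members' median is -0.21.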

How the data were processed

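RNA was sequenced from 2 dTAG-13 and 2 untreated gastruloid samples, grouped by their titles, after ribosomal RNA depletion, per the labels' protocols. Each library has 1 deposited table of counts, whole numbers of reads for each gene symbol with no scaling. Per the submitters' processing notes, the tools listed were HTSeq 0.12.4, STAR 2.7.6a, DESeq2 1.34.0 and fastp 0.20.1, with mm10 and GRCm38.p6 as builds and no role stated. Neither the counting annotation nor a strand setting is given in the sources used. Lines that name no gene entered neither library sizes nor tests. Replicates of a group differed beyond sampling noise (chi-square per degree of freedom 32.7 for dTAG-13 and 38.4 for untreated).

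All 4 libraries were fitted with edgeR 4.0.16 (R 4.3.3), with the group as the only term: filterByExpr (minimum count 10, minimum total 15), TMM factors, robust glmQLFit, a two-sided glmQLFTest and Benjamini-Hochberg adjustment over 13602 genes at 0.05. The biological coefficient of variation (root of the common dispersion) came to 21.7%. SE was obtained from the fold change and the root of its F statistic, and 95% intervals use the fit's degrees of freedom. Differences within replicate numbers are of log2 CPM with a prior count of 2. The fit was tested on simulated data. Their spread was smaller than that of these libraries and had no shift by replicate number, so that run does not measure power or error here. DESeq2 1.42.0, other scaling factors and filters, a replicate block and leaving out each library were alternatives.

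The members and lists were chosen with earlier results of these data known. All members and, per pathway list, the 2 genes of smallest p whose mean log2 CPM reached 1 are named. Genes most alike had to reach 3. Cplane1 and Cplane2 were listed under older symbols and matched through RefSeq synonyms. Protein sequences were not used here.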

Additional observations from a re-analysis of the deposited data

How the results depend on the processing

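No member passed under RLE, upper quartile or plain library totals, with no filter, with at least 50 counts, in DESeq2 or without any one library. DESeq2 called 40 genes in all, 26 higher and 14 lower, and none of the pathway. A replicate block in edgeR's fit gave 636 genes (4.68% of those tested), 395 higher and 241 lower. These held 1 member, Celsr1 (log2 fold change -0.55, adjusted p = 0.0202), and 6 other pathway genes, namely Fat3, Fat4, Dchs1, Dchs2 and, higher, Llgl2 and Daam1. Under the block Prickle1 was at 0.00. Same-numbered libraries deviated together from their group means (correlation over genes 0.63), and the fit without a block leaves such shifts in its spread. The labels do not say what a number shares, and with 2 numbers a block rests on few libraries. It was therefore kept as an alternative. The cause of these shifts was not tested.

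Without untreated replicate 2 the members' median was -0.04, and over the 4 fits that leave out a library it ran from -0.29 to -0.04. Over those fits the log2 fold change ran from -0.10 to 0.18 for Vangl1, -0.39 to 0.39 for Prickle1, -0.18 to 0.36 for Ptk7, -1.16 to 0.33 for Dact1, -0.11 to 0.13 for Scrib, -0.25 to 0.02 for Cplane1, -0.16 to 0.68 for Rhou, -0.10 to 0.36 for Gipc1 and -0.65 to 0.10 for Zeb2. With plain library totals the difference within number 1 was -0.33 for Celsr2, -0.01 for Vangl1, -0.33 for Prickle2 and -0.03 for Ptk7, and within number 2 it was -0.23 for Prickle2 and 0.19 for Ptk7. With that scaling Vangl1 and Ptk7 turned below untreated in number 1 and Vangl1 turned to 0.05 in number 2, while the number 1 difference of Vangl2 and of Scrib was -0.23, of Dact1 -0.15 and of Prickle1 0.14. The number of libraries, 2 per group, limits the precision.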
